A study of Homo sapiens with 6 samples.

Results

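The miRNAs examined here come from the imprinted region at 14q32, between the genes DLK1 and DIO3 on human chromosome 14. They are 56 mature names out of the 1727 known mature miRNA names counted over 6 small RNA libraries. Members were taken by name from a list of this region, by a rule that uses no measured value, and a member missing from a library's table was counted as 0. Every member had counts in at least 5 libraries, and 54 to 56 were detected in each library. The list was drawn up with earlier results of these data known, so this detection describes the listed names and not the whole region. The cells were BEAS-2B, a long-established line of human bronchial epithelium immortalised with viral T antigen. In 3 libraries the cells had received the empty plasmid pcDNA3.1 (control), and in 3 they had received pcDNA-PRMT1, which over-expresses the arginine methyltransferase PRMT1, each for 48 h. PRMT1 itself was not measured, since the tables hold small RNAs only. Nothing in the labels says whether the replicates were cultured separately, and the p-values therefore rest on a spread between samples that may be technical.

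The region is transcribed from the maternal chromosome as long noncoding RNAs, and the paternal copy is normally silent. Most of its miRNAs are cut from introns of these transcripts by DROSHA and DICER, so that many hairpins can come from the same precursor. The cluster is best known from placenta, embryonic tissues and brain. One stretch lies antisense to RTL1, a paternally expressed gene of retrotransposon origin, and the miRNAs there match the RTL1 message perfectly.

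On GRCh38.p14 (RefSeq positions; the build named for the deposited data, GRCh37.p13, differs) the members spanned 197.7 kb of chromosome 14, from 100869075 to 101066786, on the plus strand. They came from 43 hairpins, because miR-329-3p and miR-376a-3p are each encoded by a pair of hairpins. By GENCODE release 29, the 12 members from miR-493 to miR-136, called proximal here, lay in introns of the noncoding gene AL117190.1, and 8 of them were also antisense to an exon of RTL1. MiR-370-3p lay in introns of AL117190.1 and MEG8. The remaining 43 members, from miR-379 to miR-656, are called distal. Of these, 13 lay in introns of MEG8, 5 in introns of MIR381HG, 6 in introns of MEG9, 1 in an exon of MEG9 and 18 in no annotated gene.

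The sequences of the 4 most abundant members, of the near-identical miR-376 names, and of the members whose values are discussed most are given here from RefSeq, 5′ to 3′. Capitals mark the seed, bases 2 to 8, which directs target pairing.
hsa-miR-127-3p: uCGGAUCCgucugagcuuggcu
hsa-miR-376c-3p: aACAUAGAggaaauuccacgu
hsa-miR-376a-3p: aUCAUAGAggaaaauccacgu
hsa-miR-376b-3p: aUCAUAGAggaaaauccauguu
hsa-miR-411-5p: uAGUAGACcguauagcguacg
hsa-miR-379-5p: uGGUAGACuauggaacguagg
hsa-miR-411-3p: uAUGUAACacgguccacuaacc
hsa-miR-379-3p: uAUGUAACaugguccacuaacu
hsa-miR-134-5p: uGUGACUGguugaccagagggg
hsa-miR-433-3p: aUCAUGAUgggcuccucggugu
hsa-miR-654-3p: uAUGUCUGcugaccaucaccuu
hsa-miR-377-3p: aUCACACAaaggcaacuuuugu
Seeds were shared by 3 pairs of members only: miR-376a-3p with miR-376b-3p, miR-379-3p with miR-411-3p, and miR-154-3p with miR-487a-3p. Differences were counted from the 5′ end over the length of the shorter name. MiR-376a-3p differed from miR-376b-3p by C19U and from miR-376c-3p by U2A and A14U, with the base of miR-376a-3p first. MiR-376b-3p, of 22 bases, was also longer than miR-376a-3p, of 21. MiR-379-3p differed from miR-411-3p by U10C and U22C, with the base of miR-379-3p first. Counting could divide reads among such close names, so their separate values are uncertain. MiR-323a-3p and miR-323b-3p, of 21 and 22 bases, also differed at 2 bases over the shorter length. MiR-1185-1-3p differed at 1 base from miR-1185-2-3p, which is not a member.

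Several members shared a run of letters. The letters GGUCNAC stood in 8 of 56 members and in 10 of the 1555 single names with a RefSeq sequence, 0.643%. The letters GGUUNACC stood in 5 members and in 7 of the 1555 names, 0.450%. Both were looked for in the mature strand only and were chosen after the sequences had been seen. The counts include members in which the letters lie in the seed or reach into it, namely miR-412-5p, miR-493-3p, miR-299-5p and miR-134-5p. For 6 members chosen for their different seeds, with the letters outside the seed, those letters are shown in capitals.
hsa-miR-323a-3p: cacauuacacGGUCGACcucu
hsa-miR-758-3p: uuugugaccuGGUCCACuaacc
hsa-miR-380-3p: uauguaauauGGUCCACaucuu
hsa-miR-329-3p: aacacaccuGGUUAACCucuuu
hsa-miR-655-3p: auaauacauGGUUAACCucuuu
hsa-miR-154-3p: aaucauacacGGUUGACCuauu
The shared letters lay 3′ of the seed in these 6 members, and their different seeds follow from the choice. MiR-379-3p, miR-411-3p and miR-323b-3p, left out of this list, also held GGUCNAC 3′ of the seed. Of these, miR-379-3p and miR-411-3p shared a seed.

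In units of 1000000, the libraries held 23.95 to 25.79 counts each, of which 11.54 to 16.42 were of known mature miRNAs. Control library 2 stood apart, with miR-21-5p at 66.0% of known miRNA counts against 49.4% to 59.1% in the other libraries. All 7 epithelial miRNAs listed as markers (the miR-200 family, miR-205-5p and miR-203a-3p) were detected in every library, and together made up 7674 to 10057 of every 1000000 known miRNA counts (CPM, here not yet scaled by TMM). The marker list of fibroblasts and smooth muscle summed to 48.3 to 52.1 CPM with the empty plasmid and 45.4 to 72.8 CPM with PRMT1. The endothelial list (the arms of miR-126) summed to 1576 to 2383 CPM and the neural list to 524 to 816 CPM over all libraries. The 5 blood names summed to 4.68 to 6.76 CPM with the empty plasmid and 8.04 to 19.9 CPM with PRMT1, without overlap. Exon fragments took 2.60% to 5.21% of all counts in control and 5.43% to 6.73% in PRMT1 libraries, also without overlap. The part of these differences in the members' values was not tested. Of the pluripotency list, 6 of 8 names were in the tables, all at 3 counts or fewer in each library. The 14q32 members were a small part of this pool, taking 0.152% ± 0.0385 of known counts with the empty plasmid and 0.142% ± 0.0284 with PRMT1 (SD, n = 3 each).

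Levels along the cluster were very uneven, and 4 members carried most of the reads. From here levels are CPM after TMM scaling (edgeR's trimmed mean of M values, which sets libraries to a common scale), with no length term, and all members are 21 to 23 bases long. Summed over 56 members, the cluster stood at 1618, 1417 and 1530 CPM in control libraries 1 to 3 and at 1362, 1104 and 1720 CPM in PRMT1 libraries 1 to 3. The PRMT1 values spanned the control values on both sides, and the ratio of group means was -0.13 on the log2 scale (1522 ± 100.5 against 1395 ± 309 CPM, SD, n = 3). Which group was wider depended on scaling, and the TMM factor of control library 2 was 0.761, against 0.986 to 1.11 elsewhere. Before scaling, the members took 0.1778%, 0.1078% and 0.1704% of known counts in control libraries 1 to 3. They took 0.1451%, 0.1128% and 0.1695% in PRMT1 libraries 1 to 3, and there the control values spanned the PRMT1 values. In bulk RNA, fewer cells making these miRNAs and fewer copies per cell cannot be told apart. MiR-127-3p, miR-376c-3p, miR-411-5p and miR-379-5p together held 51.3% to 60.8% of the cluster's level. Mean levels over the 6 libraries ran from 0.157 to 332 CPM with a median of 8.55 CPM, and the highest member ranked 102nd among all known names. Of the 56 members, 25 had a mean of at least 10 CPM, and 4 were below 1 CPM.

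**Figure D1:**
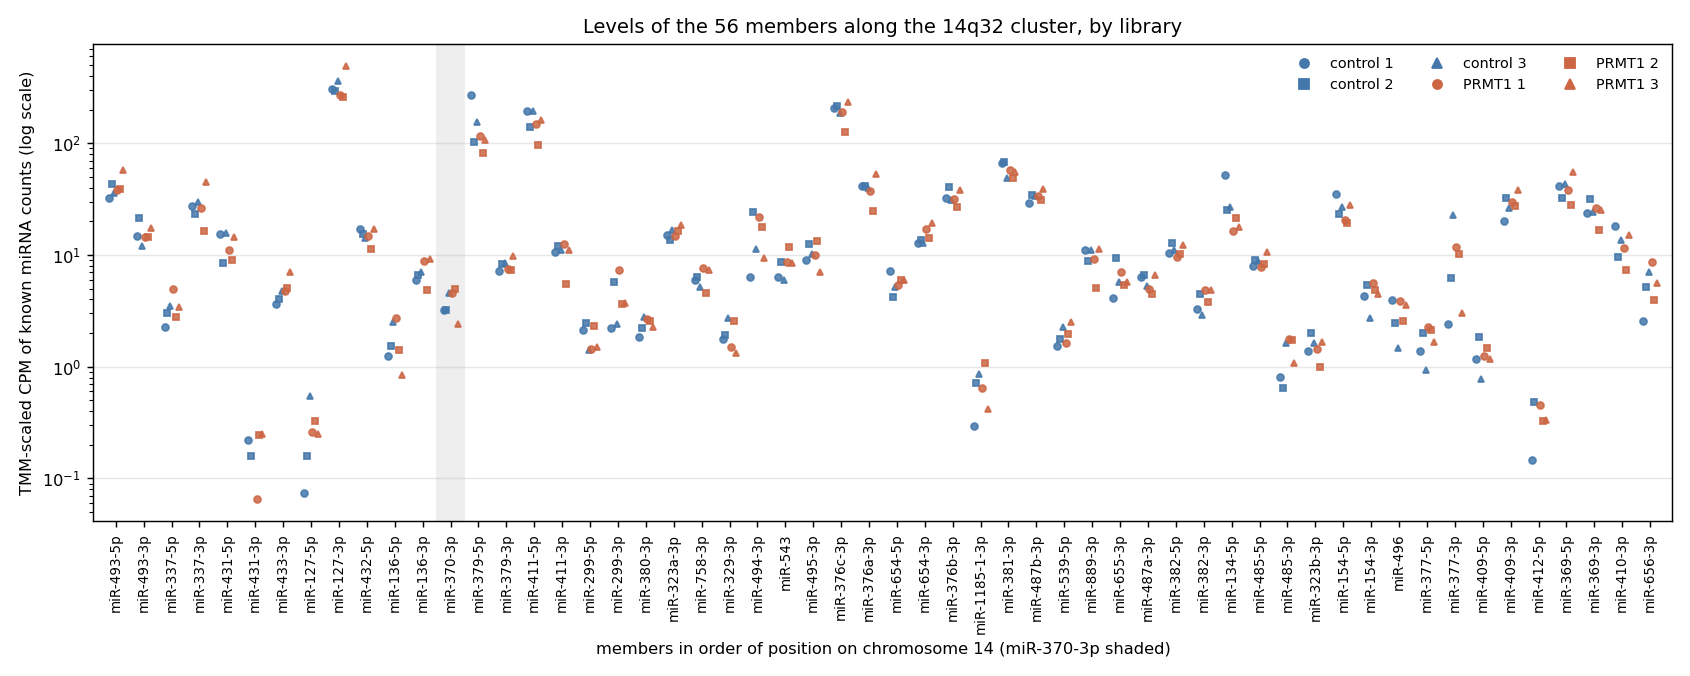
TMM-scaled CPM (log axis) of each member in each library, with members in order of position and points coloured by group and shaped by replicate. Counts of 0 are not drawn. MiR-127-3p lies highest, between 259 and 496 CPM, while its other arm stays below 1 CPM.

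MiR-127-3p, one of the miRNAs antisense to RTL1, was the most abundant member, at 306.5, 292.9 and 363.6 CPM with the empty plasmid and 271.9, 259.4 and 495.5 CPM with PRMT1. Its lowest library lay above the highest library of every other member but miR-379-5p, which reached 271 CPM in control library 1. MiR-376c-3p stood at 208.9, 216.1 and 185.3 CPM with the empty plasmid and 190.4, 127.2 and 233.0 CPM with PRMT1. MiR-411-5p followed, with 196.3, 139.1 and 194.7 CPM with the empty plasmid and 147.7, 97.12 and 160.9 CPM with PRMT1. The levels of miR-376c-3p, miR-411-5p and miR-379-5p overlapped, so their order is not separated by the spread. The fifth member, miR-381-3p, ranged from 49.1 to 68.4 CPM and lay below all libraries of these 4. From there, levels of neighbours in rank overlapped: miR-493-5p, miR-369-5p and miR-376a-3p had means of 41.0, 39.7 and 39.7 CPM.

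Neighbouring hairpins differed widely in level. For this, 41 hairpins were put in order, with miR-329-3p and miR-376a-3p each placed at the first of its hairpins. Hairpins without members were skipped, so some pairs were not directly adjacent on the chromosome. Over the 40 pairs in this order, member arms summed, the median ratio of the higher to the lower mean level was 2.92-fold. In 12 pairs it was over 10-fold, among them miR-370 with miR-379 (38.6-fold), which lay 110885 bases apart. MiR-433-3p, whose primary transcript is known to overlap that of miR-127, stood 1052 bases before the miR-127 arms and had a mean of 4.88 CPM, 68.0-fold below them. MiR-379 and miR-411, the first hairpins of the distal stretch, were alike, at 148 and 166.5 CPM, and miR-299, the next, was at 6.03 CPM. The proximal members held 26.4% to 38.9% of the cluster's level, most of it miR-127-3p. The 13 members in introns of MEG8 held 20.3% to 33.2%, and the 6 in introns of MEG9 held 5.50% to 7.70%. The 3 miR-376 names, whose hairpins lie close together in no annotated gene, held 16.2% to 21.1%.

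Most hairpins gave mainly 1 arm, and the arm with more counts was the same in every library. Both arms were members in 15 hairpins with at least 10 counts per library. The 3p arm was the larger in all 6 libraries for 7 hairpins and the 5p arm for 8. Over all 296 hairpins measured this way, the numbers were 125 and 147. The 3p arm took 99.9% ± 0.0655 (SD, n = 3) of miR-127 counts in control and 99.9% ± 0.0382 in PRMT1 libraries. It took 1.09% ± 0.973 and 1.65% ± 1.03 of miR-431 counts. The closest to balance were miR-369, where the 3p arm took 31.7% to 49.5%, and miR-299, where it took 50.9% to 83.7%. In some libraries the 95% Wilson interval, which covers counting error, included equal arms, so the larger arm is uncertain there. These were control library 2 for miR-369, control libraries 1 and 3 and PRMT1 library 2 for miR-299, and control library 1 for miR-377.

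**Figure D2:**
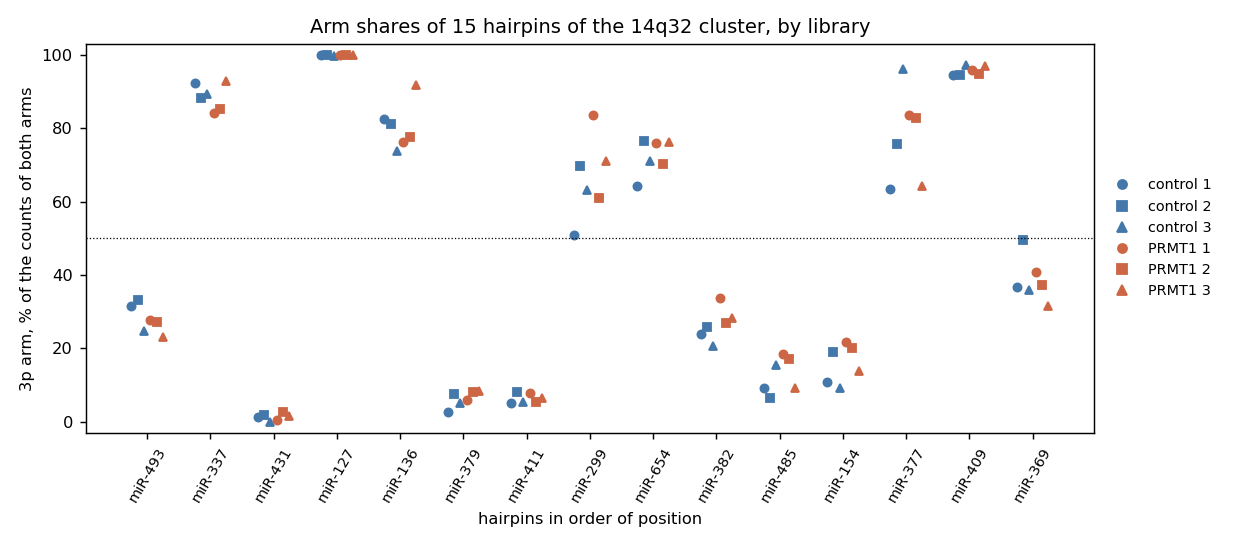
Share of the 3p arm among the counts of both arms for 15 hairpins in order of position, with 1 point per library and the dotted line at equal arms. No hairpin crosses the line between libraries, and miR-382 is the only one whose groups do not overlap.

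Between groups, the arm shares overlapped in 14 of the 15 hairpins. The exception, miR-382, had its 3p arm at 23.9% (95% Wilson interval 18.4% to 30.5%), 25.8% (20.4% to 32.01%) and 20.6% (15.3% to 27.0%) in control libraries 1 to 3. In PRMT1 libraries the values were 33.6% (27.7% to 40.1%), 26.9% (20.8% to 34.0%) and 28.4% (22.7% to 35.0%). These intervals cover counting error only, and every control interval overlapped every PRMT1 interval except that of control library 3 with that of PRMT1 library 1. MiR-382 was named here after its values were seen. In 9.46% of all 296 hairpins the groups did not overlap, so 1 of 15 is near the background. Some hairpins varied between libraries beyond counting error. In miR-377 the 3p arm took 63.5% (49.9% to 75.2%) in control library 1 and 96.1% (93.3% to 97.8%) in control library 3. The miR-379 hairpin was another of these. Its 3p arm took 2.58% (2.12% to 3.14%), 7.48% (6.21% to 8.99%) and 5.11% (4.25% to 6.13%) of counts in control libraries 1 to 3. It took 6.07% (5.08% to 7.23%), 8.17% (6.68% to 9.94%) and 8.33% (6.999% to 9.90%) in PRMT1 libraries. Control library 1 was the lowest, and there the 5p arm alone was high, with 3696 counts against 98 of the 3p arm.

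The comparison of PRMT1 over-expression with control asked whether these miRNAs respond to PRMT1. No member passed the threshold, an adjusted p of 0.05 by the quasi-likelihood test of edgeR, among the 52 members with enough counts to be tested. The background was 0% of the 668 known miRNAs tested. Adjusted p-values of the members ran from 0.741 to 0.990. DESeq2 called 0 of 56 members (0.232% of 1724 names) and limma-voom 0 of 52 (0% of 668). At an unadjusted p under 0.05 there was 1 member, miR-134-5p, of 52, where 5.39% of all tested names reached it and 2.54% did so with the lower level under PRMT1. Fold changes lay above 0 in 28 members and below 0 in 24, with a median of 0.04 on the log2 scale. Over all tested names 53.9% lay above 0, and the median was also 0.04. The division of members moved with the rows used for scaling: with all classes of rows in the table, 20 of 53 tested members lay above 0. The median of the members was then -0.085, and that of all 1728 tested rows also fell below 0, to -0.056. In 48 of the 52 members the fold change was under 0.5 in size on the log2 scale, and the median SE was 0.32.

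**Figure D3:**
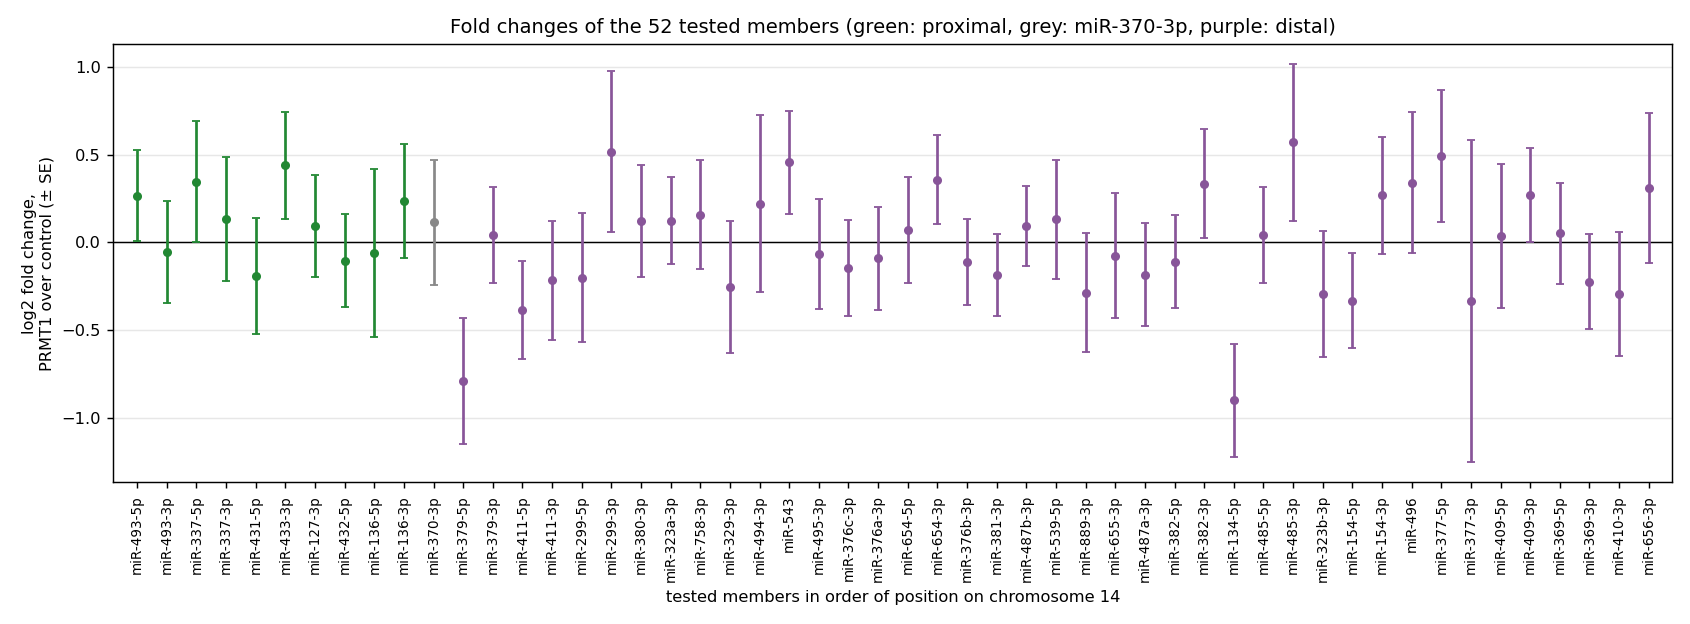
Log2 fold change of PRMT1 over control for each of the 52 tested members in order of position, with bars of 1 SE from edgeR (green proximal, grey miR-370-3p, purple distal). Values run from -0.90 for miR-134-5p to 0.57 for miR-485-3p, and none passed the threshold.

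By level, the members of the cluster divided unequally. Of the 25 members with a mean of at least 10 CPM, 9 lay above 0 and 16 below, with a median of -0.11. All 332 tested names of that level divided into 166 above and 166 below, with a median at 0. Of the 27 tested members below 10 CPM, 19 lay above 0 and 8 below, with a median of 0.12, beside 57.7% above 0 and a median of 0.07 over all tested names of that level. These counts carry no test, since single members did not pass and members share libraries. By position, 6 of 10 tested proximal members and 21 of 41 tested distal members lay above 0.

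The largest negative fold changes were those of miR-134-5p and miR-379-5p, and neither passed the threshold. MiR-134-5p, known in neurons as a repressor of LIMK1, was at 51.74, 25.21 and 27.15 CPM with the empty plasmid and 16.46, 21.63 and 17.65 CPM with PRMT1. Every PRMT1 library lay below every control library, and control library 1 was well above the other controls. The log2 fold change was -0.90 (SE 0.32, adjusted p = 0.741), and -0.51 without control library 1. MiR-379-5p, the first distal member, was at 271.3, 102.9 and 156.1 CPM with the empty plasmid and 82.31 to 116.9 CPM with PRMT1, with overlap. Its log2 fold change was -0.79 (SE 0.36, adjusted p = 0.741), and -0.35 without control library 1. The other arm of the same hairpin, miR-379-3p, ranged from 7.19 to 9.79 CPM over all libraries, with a log2 fold change of 0.04 (SE 0.28). The high value of control library 1 was seen in miR-379-5p and miR-134-5p and not in miR-379-3p. It was not confined to these names: control library 1 was also the highest library for miR-154-5p (35.5 CPM) and miR-410-3p (18.1 CPM). For others it was the lowest, such as miR-409-3p (20.1 CPM) and miR-494-3p (6.39 CPM). These examples were chosen after their values were seen. The next negative values were those of miR-411-5p (log2 -0.39, SE 0.28), miR-377-3p (log2 -0.34, SE 0.92) and miR-154-5p (log2 -0.33, SE 0.27), all with overlapping groups. Leaving out 1 library at a time gave -0.55 (without control library 2) to -0.23 (without PRMT1 library 2) for miR-411-5p and -0.53 (without PRMT1 library 3) to -0.155 (without control library 1) for miR-154-5p.

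**Figure D4:**
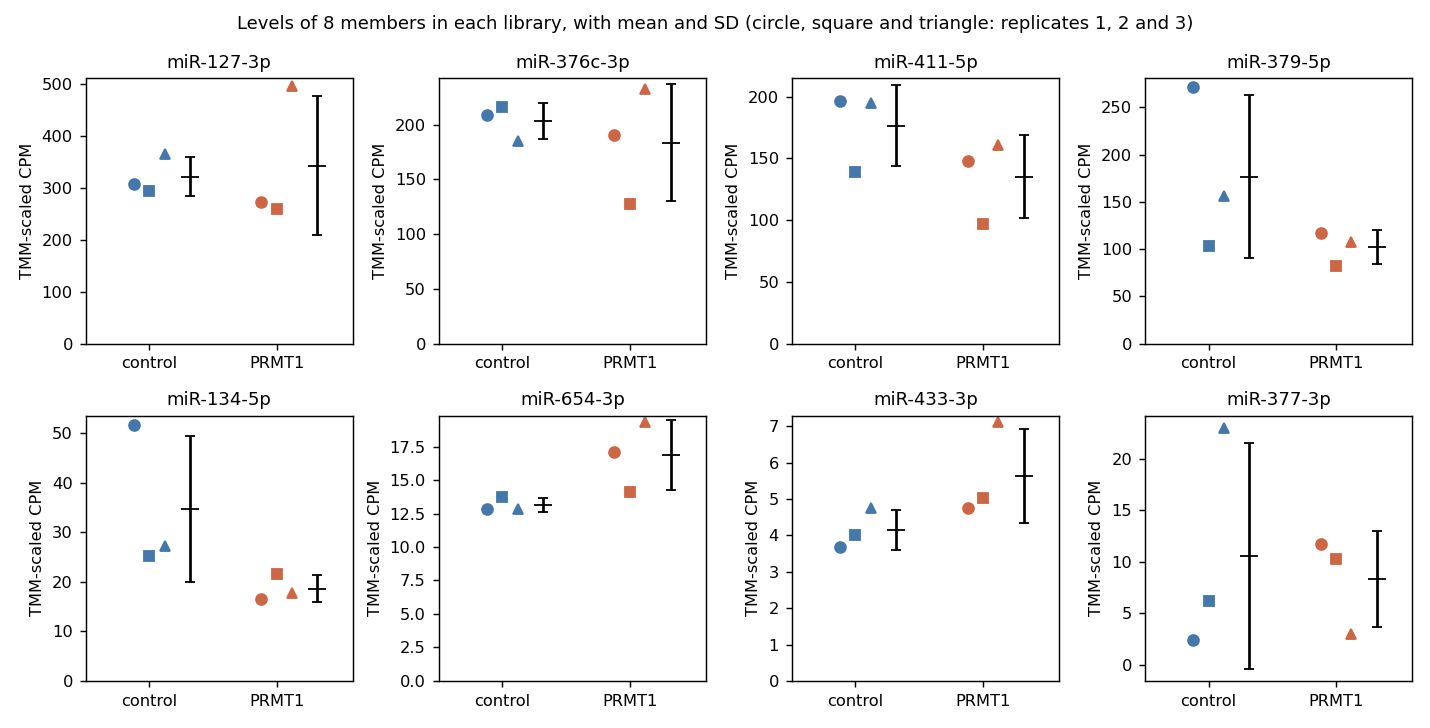
TMM-scaled CPM of 8 members in each library (linear axes), with group mean and SD to the right of the points. In miR-134-5p the groups do not overlap and control library 1 reaches 51.7 CPM, while miR-377-3p runs from 2.42 to 23.0 CPM with no order by group.

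The largest positive fold changes were in members of low level, and none passed the threshold. For miR-485-3p the log2 value was 0.57 (SE 0.45; 0.31 without control library 2 and 1.01 without control library 3), at 1.03 ± 0.532 CPM with the empty plasmid and 1.52 ± 0.378 CPM with PRMT1 (SD, n = 3). The values were 0.52 (SE 0.46) for miR-299-3p, 0.50 (SE 0.38) for miR-377-5p, 0.46 (SE 0.30) for miR-543 and 0.44 (SE 0.31) for miR-433-3p. These values moved with single libraries: leaving out 1 library at a time gave 0.06 (without PRMT1 library 1) to 1.07 (without control library 2) for miR-299-3p. The range was 0.22 (without control library 3) to 0.78 (without control library 2) for miR-377-5p. It was 0.265 (without PRMT1 library 2) to 0.625 (without control library 2) for miR-543 and 0.23 (without PRMT1 library 3) to 0.51 (without PRMT1 library 1) for miR-433-3p. MiR-433-3p was at 3.67, 4.001 and 4.745 CPM with the empty plasmid and 4.75, 5.02 and 7.11 CPM with PRMT1. Its groups touched without overlap, since control library 3 and PRMT1 library 1 were nearly equal. MiR-654-3p, a name picked out for its values, was at 12.8, 13.8 and 12.8 CPM with the empty plasmid and 17.1, 14.1 and 19.3 CPM with PRMT1. Its log2 fold change was 0.36 (SE 0.25, adjusted p = 0.786), and its groups also did not overlap. With miR-134-5p these were the 3 tested members of 52 without overlap, where 10.2% of all tested names had none (5.39% with PRMT1 higher and 4.79% with PRMT1 lower).

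The fold changes of the other abundant members were smaller than their SE or close to it. On the log2 scale the value was 0.09 (SE 0.29) for miR-127-3p and -0.15 (SE 0.27) for miR-376c-3p. The values were -0.09 (SE 0.29) for miR-376a-3p and -0.11 (SE 0.25) for miR-376b-3p, from a group of hairpins known for A-to-I editing in brain. The sum of the 3 miR-376 names, which does not depend on how reads were divided among them, was 279 ± 21.1 CPM with the empty plasmid and 254 ± 72.9 CPM with PRMT1 (SD, n = 3). The remaining values ran from -0.22 for miR-369-3p to 0.27 for miR-409-3p over miR-381-3p, miR-487b-3p, miR-493-5p, miR-369-5p, miR-337-3p, miR-409-3p and miR-369-3p. MiR-377-3p was the most variable member, at 2.42, 6.24 and 23.03 CPM with the empty plasmid and 11.71, 10.28 and 3.01 CPM with PRMT1. Its other arm, miR-377-5p, ranged from 0.934 to 2.28 CPM. The values of miR-377-3p had no order by group, and its fold change turned to 0.92 (log2) when control library 3 was left out, and to 0.06 when PRMT1 library 3 was. The 4 members not tested had at most 13 counts in any library: miR-1185-1-3p had 4 to 13, miR-127-5p 1 to 7, miR-412-5p 0 to 7 and miR-431-3p 0 to 3. These 4 entered the edgeR and DESeq2 fits made without a filter on low counts, and none passed there. A count of 0 allows up to 3 counts, or 0.183 to 0.26 CPM before TMM scaling, depending on the library.

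After TMM scaling, abundant members mostly lay on opposite sides of their group mean in PRMT1 libraries 2 and 3. In PRMT1 library 3, 22 of the 25 members of at least 10 CPM lay above their group mean, against 58.1% of all 332 names of that level. In PRMT1 library 2, 4 of the 25 lay above it, against 47.6% of all names of that level. In PRMT1 library 1, 13 of the 25 lay above it, against 47.9%. Deviations from a group mean cancel out within the group, so the counts of PRMT1 libraries 2 and 3 are not separate observations. Over the 52 tested members the counts were 34 in PRMT1 library 3 and 14 in PRMT1 library 2, with median deviations of 0.18 and -0.19 on the log2 scale. The control libraries were closer to each other after scaling, with 13, 14 and 9 of the 25 above the mean in libraries 1 to 3. Before scaling they were not, by the members' summed share of known counts. That share was 0.1078% in control library 2, the lowest of all, and 0.1128% in PRMT1 library 2.

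**Figure D5:**
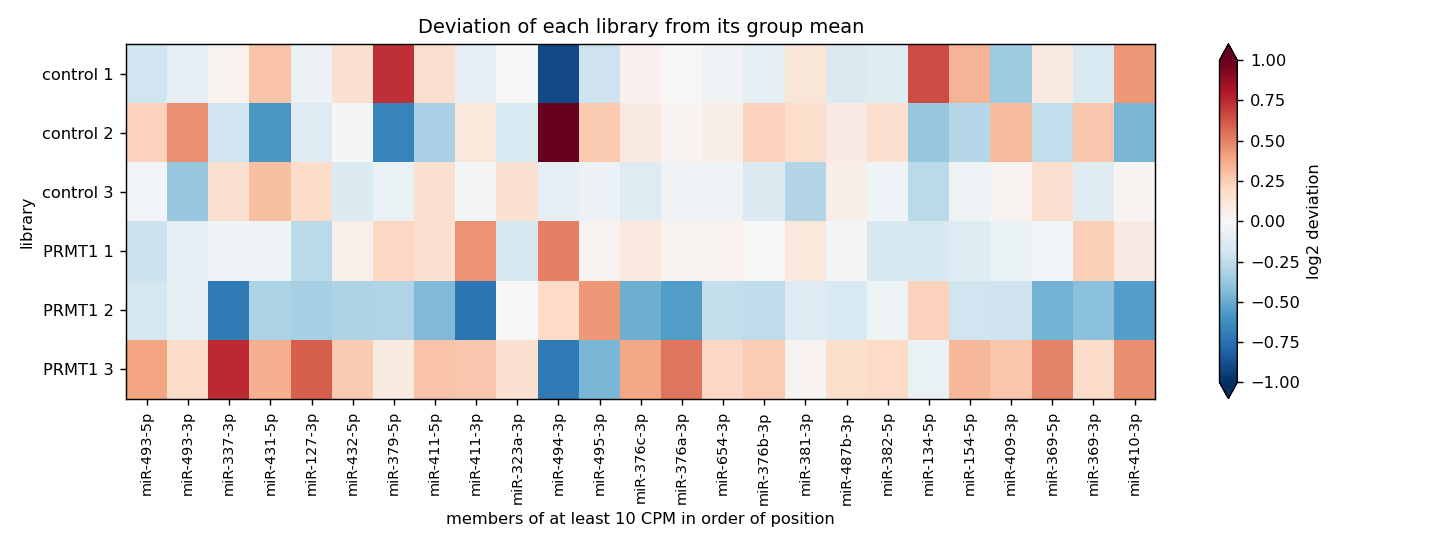
Log2 deviation, after TMM scaling, of each library from its group mean for the 25 members of at least 10 CPM, in order of position. Red marks a library above and blue below its group mean, and colours saturate at 1 in either direction. PRMT1 library 3 is mostly red and PRMT1 library 2 mostly blue, with miR-134-5p, miR-494-3p and miR-495-3p the other way round.

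Correlations over the 6 libraries, after each group mean was subtracted, described the same pattern. The median Pearson r over 300 pairs of members of at least 10 CPM was 0.38, beside -0.01 over 46971 pairs of other names of that level. Other names of that level encoded within 50 kb of each other on 1 strand had a median r of 0.10 over 252 pairs, and members within 50 kb had 0.30 over 186 pairs. Without the limit on level, members within 50 kb had 0.13 over 875 pairs and other names within 50 kb had 0.16 over 469 pairs, so the higher value of the members was not seen there. These are descriptions over 6 libraries that share their totals and scaling, with subtracted group means, and carry no test. Over all 52 tested members, 27 of them below 10 CPM, the median was 0.14. The closest pairs among the 15 most abundant were miR-369-5p with miR-337-3p (r = 0.98), a distal and a proximal member, and miR-376c-3p with miR-376a-3p (r = 0.97), which could share reads. MiR-127-3p and miR-337-3p had r = 0.91. Some members went against the rest. Among those of at least 10 CPM, the median r with the other tested members was negative for miR-379-5p (-0.15), miR-134-5p (-0.24) and miR-495-3p (-0.40). Several members below that level also had a negative median r, the lowest being -0.48 for miR-370-3p. For the arms of 1 hairpin the median r was also 0.14, over 13 hairpins, with values from -0.41 for miR-485 to 0.68 for miR-411. Within groups, the median SD of a tested member was 0.356 on the log2 scale, beside 0.376 over all tested names.

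Other transcripts of the locus were sparse. A further 33 mature names of the region, mostly opposite arms of the members, added 1.08% to 1.67% to the members' counts, and 23 to 29 of them were detected per library. The largest were miR-376b-5p, with 45 to 70 counts, and miR-381-5p, with 25 to 73. The region also encodes the imprinted box C/D small nucleolar RNAs SNORD112, SNORD113 and SNORD114, which lie between miR-136 and miR-379. The joint row of the SNORD113 and SNORD114 family had 31, 38 and 91 counts in control and 9, 104 and 26 counts in PRMT1 libraries, with overlap. SNORD112 had 0 to 4 counts per library. The snoRNA row was lowest in PRMT1 library 1 and highest in PRMT1 library 2, where the miRNAs of the cluster were lowest after TMM scaling.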

How the data were processed

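The deposited counts are whole numbers per small RNA feature, not normalised. The deposited TPM values equal the count divided by the library's total and multiplied by 1000000, within 0.005, so they carry no length term, and they were used only for this check. Per the submitters' processing notes, HISAT, Bowtie2, RSEM and build GRCh37.p13 were involved. Which tool counted miRNAs, and how reads with several matches were divided, is not given in the sources used here. Per the labels' protocols, RNA went through mRNA enrichment or rRNA removal. They describe no size selection of small RNA, which limits what the share of miRNA in a library means. Rows of known mature miRNAs entered the fit. Low counts were removed with filterByExpr, libraries scaled with TMM, and groups compared by edgeR 4.0.16 (quasi-likelihood, robust fit) with Benjamini-Hochberg adjustment over 668 names. SEs are the fold change over the root of F. Log2 CPM used a prior count of 2. Intervals and count limits cover counting error only. Alternatives were other scalings, rows and filters, a replicate block, summed close names, omission of each library, DESeq2 1.42.0 and limma-voom 3.58.1. The list of members, the marker lists and the motifs were drawn up with earlier results of these data known, although the rule for members uses names only. Named members were the 15 of highest level, any with unadjusted p under 0.05, and the 5 largest fold changes per direction. Sequences and positions are from RefSeq GRCh38.p14, matched for all 56 members.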

Additional observations from a re-analysis of the deposited data

How the results depend on the processing

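The count of 0 members past the threshold stayed 0 under the 11 other settings and without each library in turn. Over all names, calls appeared with no filter (9 of 1727), with DESeq2 (4), with the replicate block (1 of 668) and without PRMT1 library 1 (1 of 690). With the strict filter (CPM of at least 10 in 3 libraries), 9 of 27 tested members lay above 0 and the median was -0.108, since members of low level were left out by construction. Members above 0 ran from 22 to 30 and the median from -0.041 to 0.049 over omissions of 1 library. The summed level had a log2 ratio of -0.245 to -0.094 under other scalings, tables and the replicate block, and of -0.303 (without PRMT1 library 3) to 0.018 (without PRMT1 library 2) over omissions. Hairpins whose arm shares did not overlap numbered 1 of 12 with a minimum of 100 counts (20 of 189 over all hairpins) and 1 to 4 of 15 over omissions (46 to 72 of 296), where fewer libraries overlap less by construction. Of the 21 named members, 7 changed sign in some setting. With all classes of rows the log2 fold change was -0.031 for miR-127-3p, -0.033 for miR-487b-3p and -0.059 for miR-369-5p. That of miR-377-3p was 0.149 with the replicate block and 0.037 with limma-voom. Over omissions it ran from -0.823 to 0.915 for miR-377-3p, -0.331 to 0.382 for miR-337-3p, -0.28 to 0.223 for miR-127-3p, -0.24 to 0.221 for miR-369-5p, -0.366 to 0.023 for miR-376c-3p, -0.405 to 0.109 for miR-376a-3p and -0.005 to 0.137 for miR-487b-3p. The causes were not tested. Deviations of same-numbered libraries had correlations of -0.091, 0.195 and -0.122, beside -0.155 to 0.244 for libraries of different number. With 3 libraries per group these values cannot settle whether the numbers pair the libraries. With the number as a block 0 members passed. Depth limits the 4 members below 1 CPM most, with at most 13 counts in any library.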
